A study of Mus musculus with 9 samples.

Results

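The cytosolic ribosomal protein genes were taken by symbol, as every gene named Rpl or Rps followed by a number and at most a short suffix. This gave 78 of the 18484 genes counted. Of these, 42 encode core proteins of the large subunit, 30 encode core proteins of the small subunit and 6 are paralogues (Rpl3l, Rpl7l1, Rpl22l1, Rpl39l, Rps4l and Rps27l). The reference annotation lists Rps4l as a transcribed processed pseudogene and the other 77 as protein-coding. Rpl13 and Rpl10l were not analysed here.

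Ribosomal proteins assemble with ribosomal RNA in the nucleolus into the subunits that translate messenger RNA in the cytoplasm. Their messages are short and abundant, and many start with a 5′ terminal oligopyrimidine tract, a run of C and T bases through which mTOR signalling adjusts their translation. In mammary epithelium, demand for ribosomes changes with growth and lactation. A paralogue can take the place of its core protein in some tissues.

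RNA was measured by sequencing in 9 snap-frozen mammary tumours, 1 library per tumour, of mice that carry BlgCre and NeuKI. According to the study, these mice were of a mixed FVB/C57Bl6 background and heterozygous for both alleles. In all of them an activated Neu gene sits in the endogenous Erbb2 locus behind a STOP cassette, and Cre under the Beta-lactoglobulin promoter, which is active in luminal cells, removes that cassette. The 5 tumours called high-amplified, all adenocarcinomas of no special type or AC(NST), carry the label of high amplification of the Erbb2/Neu locus. Of these, MS1213.1 and the pair MS1163.1 and MS1163.2 arose in virgin mice, while MS1218.2 and also MS1155.3 arose in parous mice. Values of the high-amplified tumours are listed in this order. The label rests on qPCR, and other copy number assays of the study were discordant with it for MS1213.1 (droplet PCR) and MS1218.2 (droplet PCR and exome sequencing). The 3 not/low-amplified epithelial tumours arose in parous mice and are listed as MS1210.1 and MS1349.1, both adenosquamous carcinomas (ASQC), then MS1166.1, an AC(NST). A mammary sarcoma of a parous mouse, MS1156.1, was kept out of the tests, as in the study. The MS1163 pair shares a mouse number, although the series text gives each tumour its own mouse. The study speaks of MS1163 as a single animal, so the tumours of virgin mice may come from fewer mice than tumours. The virgin mice gave high-amplified tumours only and both ASQC were not/low-amplified, so amplification, parity and histotype cannot be told apart fully. The ages of the mice and the RNA extraction used for each tumour (Trizol or a column kit) are not given in the sources used here.

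Depth was 12501225 to 23912429 counts on genes in the epithelial tumours and 13058738 in the sarcoma. The summed normalized count of 5 epithelial markers (Epcam, Krt8, Krt18, Cdh1 and Krt19) lay between 30710 and 48490 in the high-amplified group, between 73980 and 126200 in the not/low-amplified group and at 454.8 in the sarcoma, none of the 5 being at 0. The 5 fibroblast markers summed to 25710 to 251600 in the high-amplified group, highest in MS1218.2, to 21650 to 79320 in the not/low-amplified group, lowest in MS1166.1, and to 337800 in the sarcoma. The 6 white blood cell markers summed to 16980 in MS1218.2, to 1458 in MS1166.1 and to 2910 to 7647 in the other epithelial tumours. In bulk samples, fewer cells of a type and less RNA per cell cannot be told apart.

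The bases around the transcript start are shown for members that the results turn on, since a pyrimidine run at the start is known from many genes of the family. Each sequence holds 15 bases before and 15 bases from the RefSeq start (GRCm38.p6), 5′ to 3′ on the gene's strand, with the longest unbroken run of C and T in capitals. Rpl7a and Rpl34 have long runs, and Rps6, Rpl11, Rps27, Rps27l, Rpl22l1 and Rpl24 return in the results. The marked run covers the start base in Rpl7a, Rpl34, Rps6 and Rps27 only. The window of Rpl22 lies before the gene's annotated start in GENCODE and is not shown.
Rpl7a: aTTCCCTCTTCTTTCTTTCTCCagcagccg
Rpl34: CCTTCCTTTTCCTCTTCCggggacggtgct
Rps6: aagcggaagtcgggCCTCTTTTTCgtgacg
Rpl11: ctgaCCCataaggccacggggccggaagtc
Rps27: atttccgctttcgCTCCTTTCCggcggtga
Rps27l: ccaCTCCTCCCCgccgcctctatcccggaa
Rpl22l1: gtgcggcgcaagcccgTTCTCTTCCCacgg
Rpl24: agaaagCTgttgctaggaaacagactgggc

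The windows are at chr2:26910792-26910821 (plus strand) for Rpl7a, chr3:130730323-130730352 (minus) for Rpl34, chr4:86857353-86857382 (minus) for Rps6, chr4:136053379-136053408 (minus) for Rpl11, chr3:90213634-90213663 (minus) for Rps27, chr9:66946071-66946100 (plus) for Rps27l, chr3:28805493-28805522 (plus) for Rpl22l1 and chr16:55966260-55966289 (plus) for Rpl24. The run was 21 bases long in Rpl7a, 18 in Rpl34, 10 in Rps6 and Rpl22l1, 9 in Rps27 and Rps27l, 3 in Rpl11 and 2 in Rpl24. A RefSeq start was matched for 58 members. Of these, 25 (43.1%) held a run of at least 8 pyrimidines, against 13.91% of 27025 genes, and the median longest run was 7 against 5 bases. Members with and without such a run had nearly the same median fold change between the amplification groups, with a log2 value of -1.20 for the 25 with it and -1.20 for 32 without it that were tested.

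The 78 genes together took between 1.03% and 7.20% of the counts of an epithelial tumour. The high-amplified tumours had shares of 1.03%, 2.63%, 2.55%, 2.43% and 1.72%, with a mean of 2.07% ± 0.686 (SD, n = 5). The ASQC tumours had 3.15% and 3.12% and MS1166.1 had 7.20%, which gave the not/low-amplified group a mean of 4.49% ± 2.35 (SD, n = 3). The sarcoma had the lowest share, 0.764%. The epithelial groups did not overlap, but the lowest not/low-amplified share was only 1.19 times the highest high-amplified share. Per kilobase of exon the groups did overlap, with shares of 9.33% and 9.32% in MS1163.1 and MS1163.2 and 8.52% in MS1349.1. MS1166.1 lay at 2.29 times the mean of the ASQC tumours and 6.99 times MS1213.1. Wilson 95% intervals, which cover counting error only, were narrow, from 1.025% to 1.035% in MS1213.1 and from 7.188% to 7.214% in MS1166.1. The small and large subunits took similar parts, 0.456% and 0.559% in MS1213.1 and 3.44% and 3.72% in MS1166.1, while the paralogues took 0.0150% to 0.0476% of an epithelial library.

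**Figure D1:**
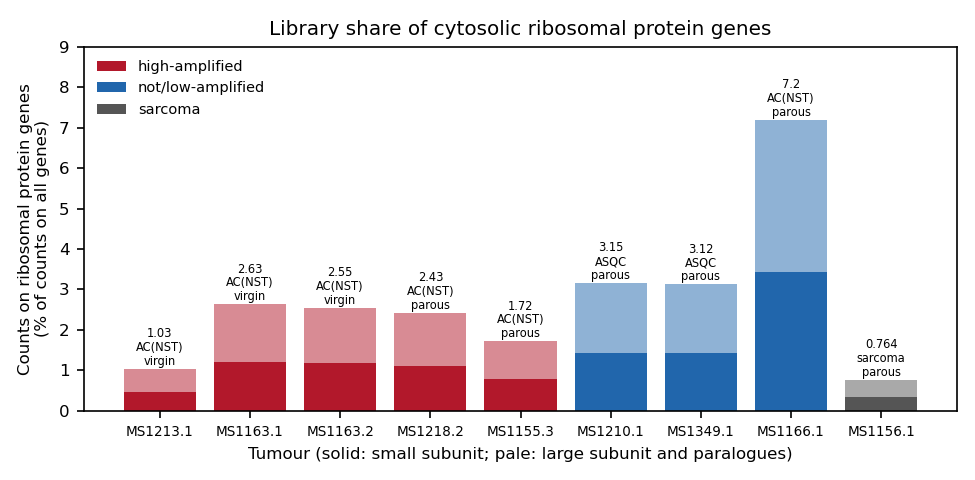
Share of the counts on all genes (%, y axis) taken by the 78 cytosolic ribosomal protein genes in each of the 9 tumours (x axis), with the small subunit solid and the large subunit with the paralogues pale. The shares of the 5 high-amplified tumours end at 2.63%, the 3 not/low-amplified tumours start at 3.12%, MS1166.1 stands at 7.20% and the sarcoma is at 0.764%.

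The members moved together from tumour to tumour. For 77 of them, those with at least 10 counts in at least 3 epithelial tumours, each gene's log2 normalized count (1 added) was set against its own mean over the 8 epithelial tumours. The median over members was -1.41, 0.00087, -0.12, 0.03 and -0.61 in the high-amplified tumours. For both ASQC it was 0.26 and 0.34, for MS1166.1 it was 1.58 and for the sarcoma -1.64. MS1213.1 was the lowest epithelial tumour for 73 of the 77 genes and MS1166.1 the highest for 72. The sarcoma lay below every epithelial tumour for 56. The shares of all genes at such extremes are not given here. Over all genes tested, MS1166.1 and the sarcoma also had the widest spread of these ratios, with SDs of 1.24 and 1.96.

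Within a tumour the members kept close to that median. Their SD was 0.25 to 0.59 on the log2 scale in the 8 epithelial tumours, against 0.77 to 1.24 for all genes tested. Genes past the filter can hold few counts, where counting error widens the ratios, and no set of like abundance was compared. Of the 77 members, 65 to 73 lay within 0.5 of the tumour's median. The small- and large-subunit medians were near each other in every tumour, the widest gap being in MS1166.1, at 1.72 and 1.55. After the tumour's median was taken off, the SD of a member over the 8 tumours had a median of 0.218 and was under 0.5 for 70 of 77. The exceptions by that measure were Rpl39l (1.79), Rpl24 (1.55), Rps4l (1.34), Rpl29 (1.25), Rps27l (0.779), Rpl22l1 (0.770) and Rpl7l1 (0.580), 5 of them paralogues. Rpl24, Rpl39l and Rps4l had few counts, so that counting error enters their spread.

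**Figure D2:**
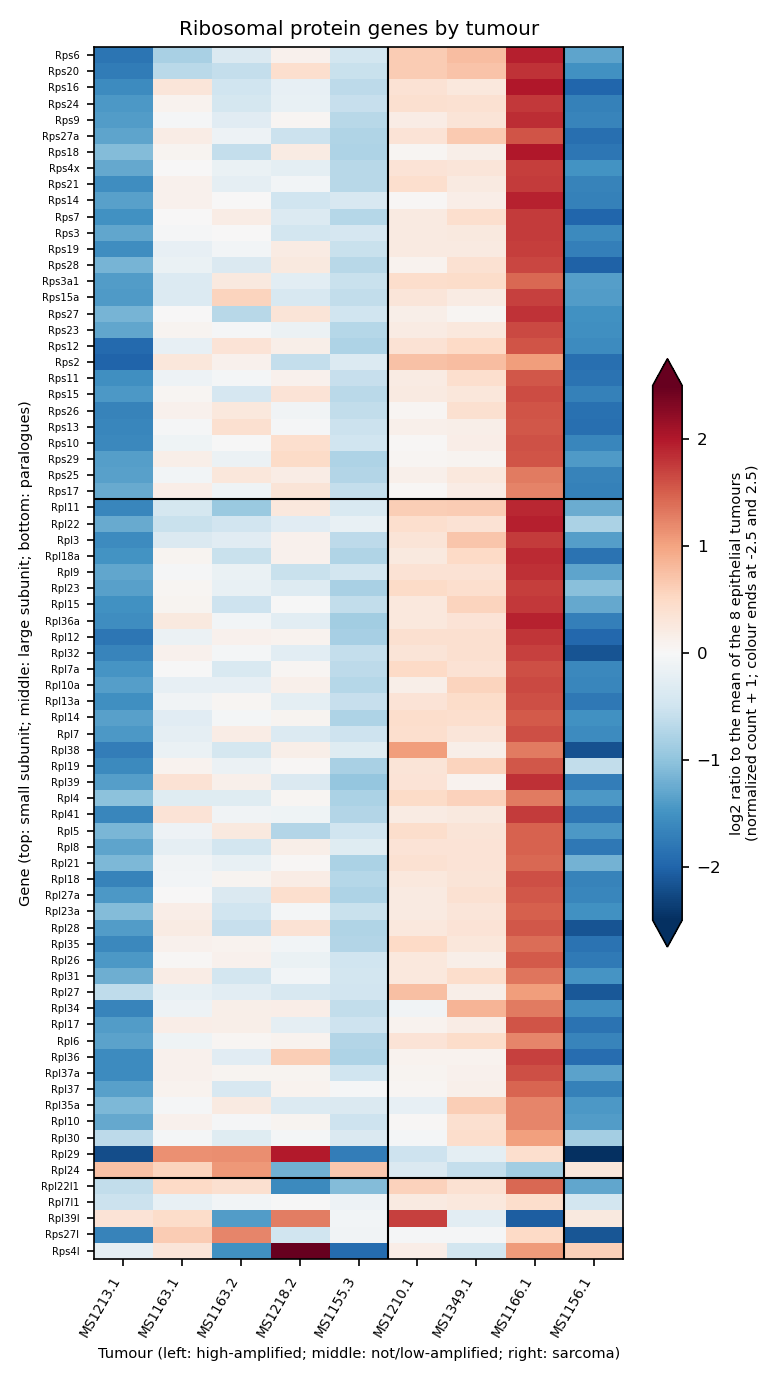
Log2 ratio of the normalized count (1 added) to the gene's mean over the 8 epithelial tumours (colour), for 75 of the 77 members tested (rows: small subunit, large subunit, paralogues, each in order of fold change) in the 9 tumours (columns). Nearly every row is lowest in MS1213.1 among the epithelial tumours and highest in MS1166.1. Rpl29, Rpl24, Rpl39l, Rps27l and Rps4l do not follow the rest, and Rpl22l1 is lowest in MS1218.2.

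Levels differed widely between members when set per kilobase of exon. The mean normalized count per kilobase over the 8 epithelial tumours had a median of 8868 over the core members. It was highest for Rps14 (27420), Rpl41 (21080), Rps12 (19130), Rps28 (19060) and Rpl32 (18260). Rpl41 encodes a very small basic peptide of the large subunit, and the others are core proteins. Among the 77 members past the filter it was lowest for Rpl39l (20.5), Rps4l (25.7) and Rpl24 (31.4), followed by Rpl7l1 (1011) and Rpl29 (1711). Counting kept only reads with a unique position, and ribosomal protein genes have many near-identical processed pseudogenes. Of the 78 members, 74 share at least 1 stretch of 76 bases, the length of a read, with a transcript of another gene, and the median member shares 50.7% of its stretches. A stretch was counted on either strand, also where the other gene overlaps the member on the genome. Such an overlapping stretch can still have a unique position, so these shares do not measure the reads lost. The share reached 98.5% in Rps27 and was 0% in Rps3, Rpl3l and Rpl39l, among others. Over 72 core members it had a Pearson r of -0.133 and a Spearman rho of -0.0691 with the log2 level per kilobase, as a description over genes of the same libraries. The level of a member with much shared sequence is therefore uncertain. The differences between tumours were similar in all classes of sharing, with a median log2 fold change between the amplification groups of -1.30 under 30% shared (17 genes), -1.20 between 30% and 70% (31) and -1.19 over 70% (24). Annotated exons of another gene overlap 4 members on the same strand (Rpl13a, Rpl19, Rpl24 and Rps10) and 9 on the opposite strand.

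High-amplified tumours had lower values than not/low-amplified tumours for 73 of 77 members, with a median log2 fold change of -1.19 (quartiles -1.32 and -1.05, 2.29-fold lower), against 0.0245 over all 14007 genes tested. No member passed the test (edgeR's quasi-likelihood test, Benjamini-Hochberg adjusted p under 0.05 and more than 2-fold). The smallest adjusted p was 0.0782, and 0.485% of all genes were called lower and 0.435% higher. At an unadjusted p under 0.05 in the same test, 62 members were lower and 0 higher, against 11.0% and 11.8% of all genes. DESeq2, which gives smaller p-values here, called 31 members lower, against 4.32% of all genes, and 0 members were higher at its unadjusted p under 0.05 (background 14.1%). The groups did not overlap, in the lower direction, for 47 members (background 8.04%) and, in the higher direction, for 0 (background 7.55%). The highest high-amplified value was that of MS1218.2 for 35 of the 77 members, of MS1163.1 for 25 and of MS1163.2 for 16.

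The calls and counts moved with single tumours. Without MS1218.2, whose amplification label is in doubt, edgeR called 8 members lower (background 3.63%), among them Rpl3, Rpl4, Rpl11, Rpl22, Rpl27, Rps6 and Rps20. The study also names MS1218.2 as the only sample not above its mark for tumour cell purity, as estimated from the RNA. The count at an unadjusted p rests on MS1166.1. Without it 9 members were lower (among them Rps6, Rps20, Rps27a, Rpl4, Rpl11, Rpl22, Rpl27 and Rpl38), against a background of 7.55%, and the median was -0.68, with 73 of 77 still negative. Within the AC(NST) tumours, where MS1166.1 alone is not/low-amplified, the median was -1.93, a value that compares 1 tumour with the 5 others and tests no group difference. Within the parous tumours the median was -1.10 and 8 members were lower (background 4.66%). With parity as a covariate it was -1.12, with 12 lower (background 6.27%). The epithelial marker sums above separate the amplification groups in the same direction as the members. Taken singly, Krt8, Cdh1 and Krt19 did not overlap between these groups, while Epcam and Krt18 did. The part of the epithelial markers in these differences was not tested.

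By subunit, the small-subunit median was -1.21 (25 of 30 lower at an unadjusted p under 0.05, 0 called) and the large-subunit median was -1.18 (36 of 42, 0 called), where 11.0% of all genes were lower at that p and 0.485% called lower. Among 5 paralogues tested the median was -0.18, and 1, Rpl22l1, was lower at that threshold.

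The smallest p belonged to Rpl27, a large-subunit protein (chr11:101442298-101445529). Its normalized count was 2559, 3474, 3311, 2980 and 2839 in the high-amplified tumours, and 6610, 4385 and 8192 in the not/low-amplified tumours. The groups were apart, with means of 3033 ± 366 (SD, n = 5) and 6396 ± 1913 (SD, n = 3). The log2 fold change was -1.06 ± 0.262 (SE), with an unadjusted p of 0.00261 and an adjusted p of 0.0782 by edgeR.

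Rps6, the small-subunit protein phosphorylated by S6 kinases downstream of mTOR, had the lowest log2 fold change, -1.77 ± 0.440 (SE, adjusted p = 0.0787 by edgeR). Its normalized count was 901, 1838, 2494, 3439 and 2320 in the high-amplified tumours against 4987, 5509 and 12321. The groups did not overlap. Rpl11, which with Rpl5 forms the particle of 5S ribosomal RNA and can bind Mdm2, read 1160, 2681, 1894, 4333 and 2773 against 5528, 5623 and 13309 (log2 fold change -1.64 ± 0.449, SE, adjusted p = 0.0892 by edgeR). Rpl22, an RNA-binding protein of the large subunit, read 1404, 2298, 2415, 2774 and 2972 against 4504, 4331 and 12911 (log2 fold change -1.58 ± 0.404, SE, adjusted p = 0.0814 by edgeR). In each of these genes MS1166.1 was the highest and MS1213.1 the lowest epithelial tumour, and no high-amplified tumour reached a not/low-amplified one.

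Rps6, Rpl11 and Rpl22 are all on chromosome 4, which carries 5 members in all. Another member there, Rps20 (chosen after its values were seen, like this grouping), had a log2 fold change of -1.60. These genes lie far apart, with starts at 3831334 (Rps20), 86854660 (Rps6), 136028265 (Rpl11) and 152325742 (Rpl22) on GRCm38. The median of the 5 members was -1.64, with a range of -1.77 to -1.58. The 864 other genes of chromosome 4 that were tested had a median of -0.35, while on the other chromosomes that carry members the median of the other genes lay between -0.0681 and 0.171. By tumour, the median log2 ratio of the 5 members minus that of the 72 members elsewhere was -0.34, -0.63 and -0.52 in the tumours of virgin mice. Among tumours of parous mice it was 0.13 and 0.25 in those high-amplified, 0.38 and 0.39 in the ASQC, 0.31 in MS1166.1 and 0.35 in the sarcoma. The other genes of the chromosome showed the same split, at -0.35, -0.45 and -0.38 in the tumours of virgin mice, and from 0.22 to 0.32 in the parous epithelial tumours and 0.14 in the sarcoma. Among the epithelial tumours the split held in stretches of 40 Mb from 40 to 160 Mb, and in the last one, from 120 Mb, 413 other genes were at -0.40, -0.51 and -0.56 in the tumours of virgin mice and between 0.26 and 0.40 in the parous epithelial tumours. It did not hold below 40 Mb, where Rps20 lies: there 91 other genes were at -0.18, -0.29 and -0.04 in the tumours of virgin mice, at -0.32 in MS1218.2 and between 0.08 and 0.44 in the other parous epithelial tumours. The number of DNA copies of chromosome 4 was not analysed here, and its part in these values was not tested.

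A higher fitted value in the high-amplified tumours was seen for 4 of the 77 members, and none of these (Rpl24, Rpl29, Rps4l and Rps27l) passed the test. Rpl29, a heparin-binding protein of the large subunit, split the high-amplified group. Its normalized count was 144 in MS1213.1 and 204 in MS1155.3, but 1498 in MS1163.1, 1511 in MS1163.2 and 2677 in MS1218.2. The not/low-amplified tumours read 470, 568 and 908, between those clusters, and the sarcoma 96.3. The log2 fold change was 0.92 ± 0.848 (SE, adjusted p = 0.542 by edgeR). Rpl24, a large-subunit protein, was counted low in all tumours, with normalized counts of 30.8, 27.3, 39.8, 7.41 and 29.6 against 14.1, 11.7 and 9.52 (log2 fold change 1.19 ± 0.632, SE, adjusted p = 0.290 by edgeR). MS1218.2 was the lowest of all and the other high-amplified tumours lay above the not/low-amplified ones. Of the exon bases of Rpl24, 71.5% also belong to a read-through gene on the same strand, Gm28037, and 80.9% of its read-length stretches occur in other transcripts, so these values do not give the level of Rpl24.

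**Figure D3:**
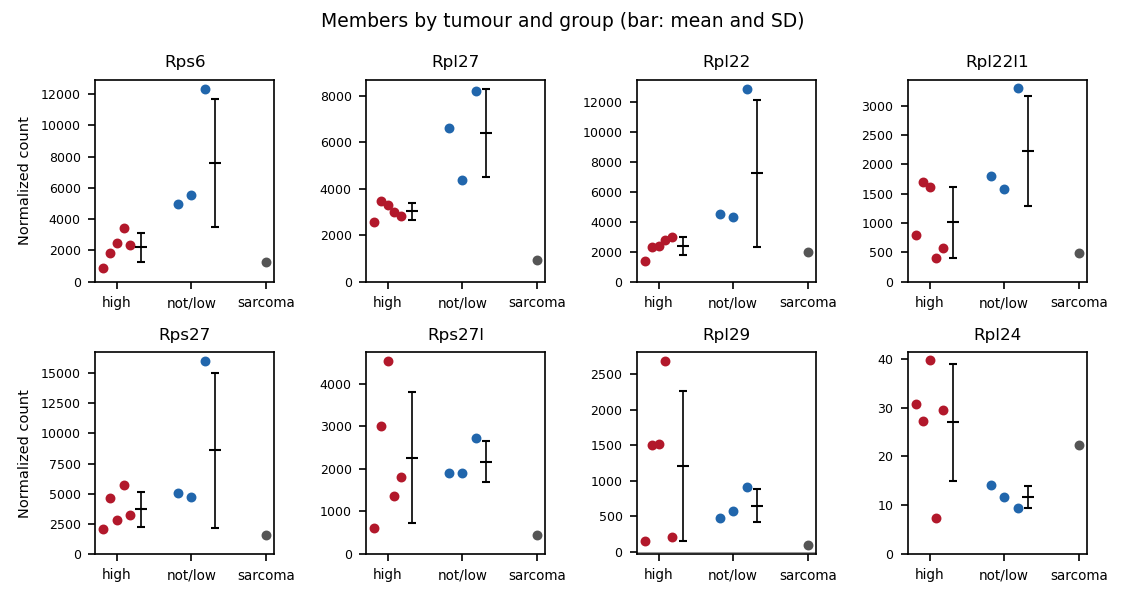
Normalized counts (y axis, own scale per gene) of 8 members by group, 1 point per tumour, with the mean and SD beside each group of more than 1. Rps6, Rpl27 and Rpl22 do not overlap between the epithelial groups, Rpl22l1, Rps27 and Rps27l overlap, Rpl29 splits the high-amplified tumours, and Rpl24 stays below 40.

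The paralogues did not keep a fixed ratio to their core genes. Rps27l, a p53-inducible paralogue of Rps27, read 606, 3002, 4534, 1365 and 1812 in the high-amplified tumours and 1892, 1899 and 2722 in the not/low-amplified tumours. The groups overlapped throughout (log2 fold change 0.07 ± 0.537, SE, adjusted p = 0.947 by edgeR). Rps27 itself read 2028, 4626, 2835, 5703 and 3234 against 5054, 4747 and 16010, with only MS1218.2 reaching into the not/low-amplified range (log2 fold change -1.19 ± 0.475, SE, adjusted p = 0.178 by edgeR). Of the counts on the pair, Rps27l held 61.5% in MS1163.2, 39.4% in MS1163.1, 35.9% in MS1155.3, 23.0% in MS1213.1 and 19.3% in MS1218.2, 27.2% in MS1210.1, 28.6% in MS1349.1 and, lowest of all, 14.5% in MS1166.1. The share was thus highest in the MS1163 pair. Rps27 shares nearly all of its sequence with other transcripts and Rps27l 11.6%, so the share compares tumours and not the messages themselves.

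Rpl22l1, the paralogue of Rpl22, read 789, 1699, 1608, 399 and 572 against 1803, 1576 and 3294 (log2 fold change -1.12 ± 0.485, SE, adjusted p = 0.208 by edgeR). MS1163.1 and MS1163.2 reached the level of the ASQC tumours. It held 36.0%, 42.5% and 40.0% of the counts on the pair in the tumours of virgin mice and 12.6% and 16.1% in the high-amplified tumours of parous mice, with 28.6%, 26.7% and 20.3% in the not/low-amplified tumours. The tumours of virgin mice were all above those of parous mice in this share. Rpl22 is on chromosome 4 and Rpl22l1 on chromosome 3, and the part of the chromosome 4 values in this share was not tested. Rpl7l1, a relative of Rpl7, varied least among the paralogues, at 899 to 1298 in the high-amplified and 1512 to 1769 in the not/low-amplified tumours, without overlap (log2 fold change -0.46 ± 0.210, SE, adjusted p = 0.224 by edgeR). Rpl7 read 5201 to 16012 against 17540 to 43381, so Rpl7l1 held 14.7% of the pair in MS1213.1 and 3.92% in MS1166.1.

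The other 3 paralogues were near the floor. Rpl39l, known from the testis, had a normalized count of 10.6, 11.5, 2.49, 21.3 and 7.73 against 28.8, 6.58 and 1.19, while Rpl39 read 1374 to 4588 against 3823 to 12673. Rps4l read 10.6, 15.7, 3.73, 79.6 and 2.58 against 14.1, 8.77 and 27.4, and Rps4x, its X-linked core gene, 4822 to 11751 against 14560 to 39099. Rpl3l, the paralogue of striated muscle, had 0 to 2 counts in the epithelial tumours and was not tested, while it had 47 in the sarcoma, 2.10% of the counts on Rpl3 and Rpl3l. The 4 skeletal muscle markers measured summed to 13120 in the sarcoma, to 2551 in MS1163.2 and to 10.5 to 204.6 in the other tumours. MS1163.2 had 2 counts of Rpl3l.

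Since the members are short, the fold changes were set against exon length. The median reference transcript of a member was 705 bases long (271 to 3706), against 2814.5 for all genes tested. In the other genes the median log2 fold change between high- and not/low-amplified tumours went from -0.38 under 1 kb (977 genes) to -0.21 at 1 to 2 kb, -0.0044 at 2 to 4 kb and 0.32 over 4 kb. The libraries themselves showed this slope. Other genes under 1 kb had a median log2 ratio of -0.52, 0.05, -0.14, 0.29 and -0.31 in the high-amplified tumours, and of 0.10, 0.14 and 0.49 in the others. For genes over 4 kb it was 0.22 in MS1213.1 and -0.30 in MS1166.1. Among the epithelial tumours, MS1213.1 and MS1166.1 were thus the extremes for short genes as they were for the members, with a smaller range. The sarcoma, at -0.68 under 1 kb and 0.28 over 4 kb, lay below MS1213.1 for short genes, as it did for the members' median.

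Among the members the longer ones were slightly lower. The 61 members under 1 kb had a median log2 fold change of -1.17 and 16 tested members of 1 kb or more one of -1.28, where the other genes went the opposite way. Over 77 members, log10 exon length and log2 fold change had a Pearson r of -0.196 and a Spearman rho of -0.33, as a description over genes of the same libraries. When edgeR was given an offset for the length trend of each library, the median of the members was -0.74, 72 of 77 were negative and 42 were lower at an unadjusted p under 0.05 (background 11.1%), with 0 called (background 0.543%), and 1, Rpl24, was higher. With this offset and without MS1166.1 the median was -0.46 and 5 members were lower (among them Rps6, Rps20, Rpl4 and Rpl11, background 7.92%). Fragmentation or RNA quality, which can give such slopes, was not measured in these files, and its part was not tested.

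**Figure D4:**
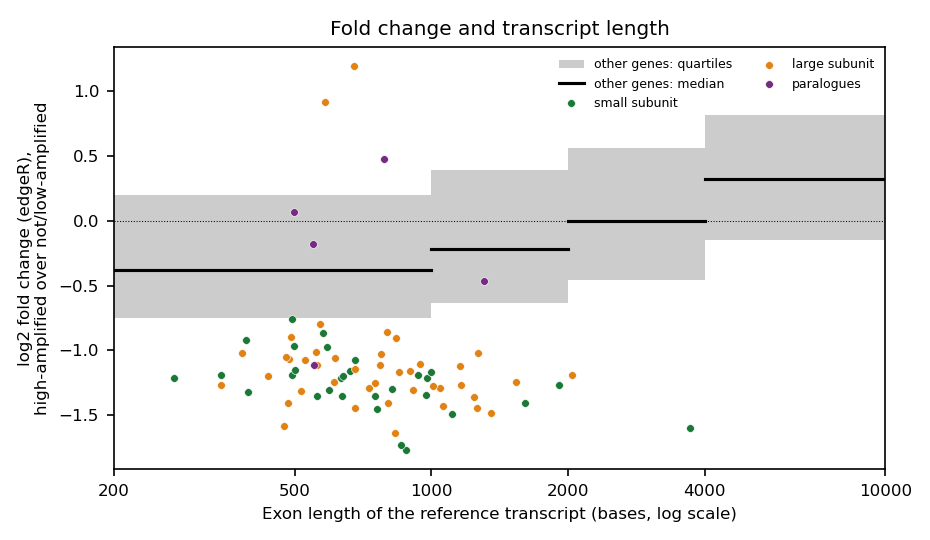
Log2 fold change between high- and not/low-amplified tumours by edgeR (y axis) against exon length of the reference transcript in bases (x axis, log scale) for the 77 members tested (points). Black lines give the median and grey boxes the quartiles of the other genes in 4 length classes, from -0.38 under 1 kb to 0.32 over 4 kb. The members' medians are -1.17 under and -1.28 from 1 kb.

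Genes that work with ribosomal proteins had lower values in the same direction, and their counts stand beside 11.0% of all genes lower at an unadjusted p under 0.05 and 0.485% called lower. The 8 other cytosolic ribosomal proteins, such as Rplp0 and Rpsa, had a median log2 fold change of -1.21 (6 lower at an unadjusted p under 0.05 by edgeR, 0 called). The 16 translation factors and other messages with a pyrimidine start had a median of -1.18 (15 lower, 0 called, smallest adjusted p 0.0579). Among these Eef1a1, the factor that brings tRNA to the ribosome, read 44339, 78891, 97377, 102660 and 61400 against 129410, 133720 and 272520. The 31 genes listed for ribosome biogenesis and RNA polymerase I, a list that also holds Myc, had a median of -0.68 (15 lower, Myc included). Of them, 1 was called, Rrs1, an assembly factor of the large subunit, at 245, 214, 209, 310 and 227 against 681, 667 and 677 (log2 fold change -1.47 ± 0.240, SE, adjusted p = 0.0305 by edgeR). Unlike in the members, MS1166.1 did not stand apart from the ASQC tumours for Rrs1. The 76 mitochondrial ribosomal proteins had a median of -0.54 (26 lower, 2 called, Mrpl9 and Mrpl12) and 72 subunits of the respiratory chain one of -0.54 (20 lower, 0 called), both nearer to the other genes under 1 kb than to the cytosolic ribosomal proteins.

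ASQC and AC(NST) tumours were not separated by the members. The median log2 fold change was 0.11 (54 positive, 23 negative, all genes -0.0771), and 0 members had an unadjusted p under 0.05 by edgeR in either direction (background 4.38% higher, 4.33% lower), with 0 called by edgeR (0.221% of all genes higher, 0.0143% lower) and by DESeq2. MS1166.1, an AC(NST), was above both ASQC tumours for 75 of the 77 members, for which the share of all genes is not given here. Without MS1166.1 this comparison is that of the ASQC with the high-amplified tumours, already given. The median turned negative without MS1213.1, to -0.07.

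Tumours of virgin mice had lower values than those of parous mice for 74 of 77 members, with a median log2 fold change of -0.88 (all genes -0.0959). By edgeR 0 members were called (0.0% of all genes) and 8 were lower at an unadjusted p under 0.05 (background 8.57%), a share near the background, with 0 higher (background 5.6%). Those 8 were the 5 members of chromosome 4 and Rpl3, Rpl8 and Rpl38. DESeq2 called 3 members, all on chromosome 4, among them Rps20 (log2 fold change -1.71, adjusted p = 0.0339) and Rpl11 (-1.72, adjusted p = 0.0351) (2.92% of all genes called lower by DESeq2). The groups did not overlap, in the lower direction, for 4 members (background 5.35%), all on chromosome 4. Without MS1166.1 the median was -0.45 and 5 members were lower (background 8.7%), the 5 of chromosome 4. This comparison uses the same 8 tumours as the others, and the 3 tumours of virgin mice are also high-amplified.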

How the data were processed

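Total RNA depleted of ribosomal RNA was sequenced from strand-specific libraries. According to the study's methods, reads of 76 bases in pairs were aligned with STAR to mouse build GRCm38 with at most 3 mismatches, only uniquely mapped reads were kept, and genes were counted with HTSeq (strand option not given in the sources used here). The authors deposited raw counts per gene for 9 tumours and, for the 8 epithelial tumours, a signal that equals these counts divided by a DESeq2 size factor (0.776 to 1.42), called normalized count here. The sarcoma was scaled by its median ratio to the geometric means of these 8 (0.717). Values are thus relative to the other genes of a library. A count of 3, the floor used, is 1.25e-05% to 2.4e-05% of a library.

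EdgeR 4.0.16 (TMM, quasi-likelihood test, R 4.3.3) was run on the raw counts of 14007 genes that reached 10 counts in 3 or more of the 8 tumours. Genes were called at an adjusted p under 0.05 and more than 2-fold. Each tumour was a replicate, the MS1163 pair included, and summing that pair was among the alternatives. DESeq2 1.42.0, other scalings and filters, length offsets, covariates and each tumour left out in turn were alternatives. Exon lengths are of the shortest transcript of the best APPRIS rank in GENCODE M21, found for 18420 genes. Named genes are the 5 members with the smallest p in each direction (only 4 were positive), the 5 highest and 5 lowest per kilobase, the 6 that vary most after the tumour's median is taken off, and paralogue pairs. Some single-gene results are not reported here. The members and lists were chosen with earlier results of these data known. Counts were simulated for high-amplified against not/low-amplified tumours (14007 genes, 200 changed). In these, edgeR called 35 of 100 genes changed by a log2 value of 2 and 74 of 100 changed by 3. Smaller changes, such as the members' median of -1.19, were not simulated.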

Additional observations from a re-analysis of the deposited data

Results flagged for a closer look

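The normalized count of Rps4l in MS1218.2, 79.6, lay far above the other 4 high-amplified tumours, which read 2.58 to 15.7. It was the 1 flag in 24 groups of 5 tumours tested for a single distant value, of which chance flags about 1 in 20. Without MS1218.2 the log2 fold change of Rps4l between the amplification groups went from 0.48 to -0.97 (adjusted p = 0.406 by edgeR).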

How the results depend on the processing

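The median over members stayed negative between high- and not/low-amplified tumours under every alternative tried, from -1.93 (AC(NST) tumours only) to -0.46 (length offset without MS1166.1), and with 1 tumour left out from -1.43 to -0.68. Members called numbered 0 except with DESeq2 (31) and without MS1218.2 (8, so 0 to 8 over tumours left out). Members lower at an unadjusted p under 0.05 by edgeR numbered 41 with the union exon length offset and 12 with parity as a covariate. They numbered 8 in parous tumours only and 4 with the sarcoma among the not/low-amplified tumours. With the length offset there were 5 without MS1166.1 and 26 without MS1213.1. With 1 tumour left out they numbered 9 to 67, with 9 without MS1166.1 and 41 without MS1155.3. The share of all genes lower was 6.27% with parity as a covariate, 4.66% in parous tumours only and 7.55% without MS1166.1. With the length offset and without MS1166.1 it was 7.92%. For the other settings, and for members higher, such shares are not given here. Members higher numbered 1 with either length offset and without MS1218.2 (Rpl24; 0 to 1 over tumours left out) and with the length offset without MS1213.1 (Rpl29). No scaling beyond library size moved the median of all genes from 0.0245 to 0.127 and that of members to -1.07.

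Between ASQC and AC(NST) the median ran from -0.067 (without MS1213.1) to 0.68 (without MS1166.1). It was -0.00055 without MS1155.3. Members higher numbered 0 to 9, for which the share of all genes is not given here. Between virgin and parous mice DESeq2 called 3 (2.92% of all genes called lower) and had 14 lower. By edgeR 5 were lower with both MS1163 tumours summed. With 1 tumour left out, 3 (without MS1213.1) to 21 (without MS1155.3) were lower, with 0 to 1 higher. The shares of all genes for these counts of lower and higher members are not given here. The mean share per kilobase of exon was 7.40% and 12.6% for high- and not/low-amplified, against 2.07% and 4.49% of counts.

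Of the named members' fold changes under the alternatives, 474 kept direction and side of the threshold, 15 passed it and 17 turned direction, all in Rps4l, Rps27l and Rpl39l. Rps4l ran from -0.97 without MS1218.2 to 0.99 without MS1166.1 and was -0.28 in AC(NST) only. Rps27l was -0.20 with the MS1163 tumours summed, -0.42 with parity, -0.30 in AC(NST) only, -0.40 in parous only, and from -0.33 without MS1163.2 to 0.31 without MS1213.1 (-0.05 without MS1163.1, -0.04 without MS1210.1, -0.0047 without MS1349.1). Rpl39l was 0.10 and 0.13 with the length offsets, 0.25 with parity, 3.03 in AC(NST) only, 0.28 in parous only, 0.07 without MS1163.2, and ran from -0.69 without MS1166.1 to 1.42 without MS1210.1. The cause of these changes was not tested. No paired analysis was possible because the labels give no replicate numbers shared between groups. The biological CV of 0.534 and groups of 5 and 3 tumours, in which parity and histotype are partly confounded with amplification, limit the test of single members.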
